A study of Rattus norvegicus with 90 samples.

Results

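The transcripts described here were far below vehicle level in rat liver 8 h after a high dose of thioacetamide and stood near the typical transcript 24 h after it. They number 23 of the 40071 transcripts listed with Ensembl identifiers. They were chosen by their measured levels in the high-dose and vehicle livers. For each transcript and time, L is the log2 of the ratio of mean high-dose to mean vehicle CPM (the estimated count scaled to the library's total on transcripts), with 1 CPM added to both, minus the median of that value over transcripts with at least 1 CPM in the vehicle livers. A member had an L of -1.2 or less at 8 h and between -0.5 and 0.5 at 24 h, and its vehicle level in liver was less than 20 times the larger of those in kidney and heart. All values from the high-dose and vehicle livers were therefore used in the choice and are given as a description, with no test.

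The animals were male Sprague-Dawley rats purchased at 10 weeks of age and later fitted with a jugular catheter. They were injected intraperitoneally with saline vehicle or with thioacetamide at 25 mg/kg (low dose) or 100 mg/kg (high dose). The 8 h rats were dosed at 9 am and kept without food, whereas the 24 h rats were dosed at 5 pm and lost access to food for the last 8 h, so that all tissues were taken at 5 pm. Poly-A RNA was sequenced from liver, kidney, and heart with 5 samples in each of 18 groups of organ, time, and dose, 90 in all. Clock time at dosing differed between the 8 h and 24 h groups and cannot be told apart from the time since dosing.

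Thioacetamide is not itself the main toxicant. Liver enzymes, chiefly those around the central veins of the lobule, oxidize it to reactive products that bind protein and lipid and injure the cells that make them. The level of a transcript in tissue reflects how fast it is made and how fast it decays, so a level can drop within hours when synthesis slows, and sooner for a short-lived transcript than for a stable one. In whole liver, fewer cells of a type and less RNA per cell cannot be told apart.

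No source used here pairs these transcript identifiers with genes. The members are therefore named by their length in bases, which is unique within the set, and 4 also by identifier. Gene roles, pathway lists, cell type markers, promoters, and sequences could not be joined to them, and the labelled organs could not be checked against markers. In place of that check, the library most correlated with each of the 90 libraries came from the same labelled organ in all 90. The total estimated count ranged from 16641408 to 36303248 in the liver libraries. Genomic intervals took from 4.08% to 28.9% of it, and 5 liver libraries were above 20%. Libraries MS-1 (24 h vehicle) and MS-9 (8 h low dose) held nearly the same data, with 99.96% of 15797 transcripts within 1 count of each other. The mean correlation of MS-9 was 0.976 with the other 8 h low-dose libraries and 0.935 with the other 24 h vehicle libraries. MS-1 was left out throughout, and the main counts over members that include MS-9 are also given without it. Other counts, such as those by DESeq2 and limma, are given with MS-9 alone.

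Most of the lowered liver transcripts stayed low at 24 h on the scale of the rule. Of all transcripts, 383 had an L of -1.2 or less at 8 h, and 325 of them were within the 20-fold bound. At 24 h, 297 of those 325 were still below the window and 5 were above it, which left the 23 members. The last member inside the 8 h limit had an L of -1.204 (2085 bases), and the first transcript outside it had -1.199 (2569 bases). At 24 h the lowest member stood at -0.499 (1577 bases) and the next transcript below at -0.520 (3853 bases), while the highest member stood at 0.363 (2967 bases) and the next above at 0.571 (4595 bases). The 20-fold bound removed no transcript that passed the other limits. How many transcripts dropped and returned depends on the scale, since 74 met the rule with no median subtracted and 148 with a pseudocount of 0.1 CPM in place of 1.

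**Figure D1:**
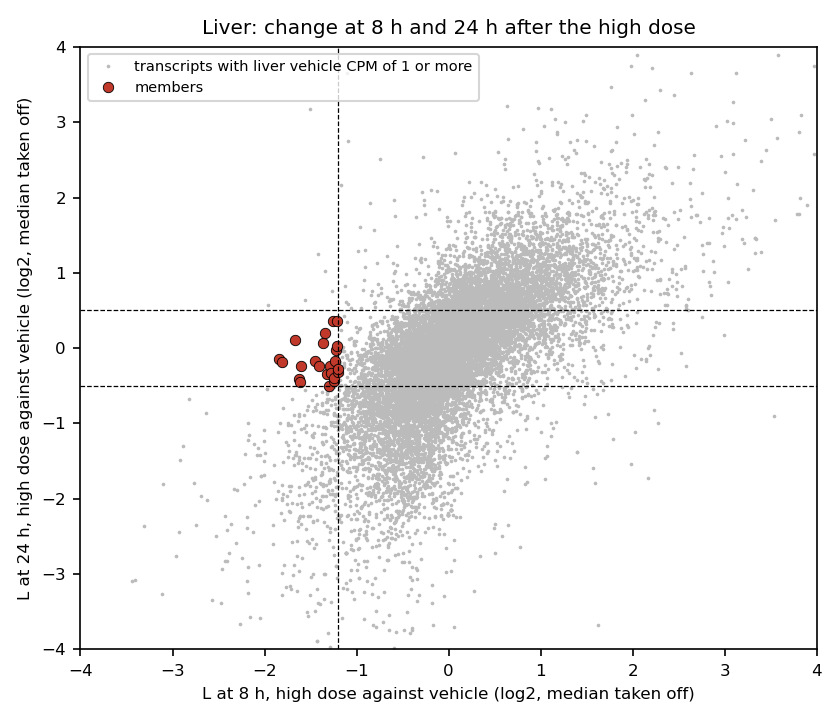
L in liver after the high dose at 8 h (x axis) against 24 h (y axis), in log2 units. Gray points are transcripts with at least 1 CPM in the vehicle livers, red points the 23 members, and dashed lines the limits of the rule. Most transcripts left of the 8 h limit lie below the 24 h window.

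At 8 h after the high dose, the mean CPM of the members was between 0% and 43.3% of the vehicle mean (median 28.8%). L ranged from -1.847 to -1.204, and its median was -1.299. In 18 of the 23, every high-dose library was below every vehicle library, a pattern shown by 11.3% of the 16792 transcripts tested in the low-dose comparison of times. The rule chose the members from these same libraries, so this excess is not independent of the choice. ENSRNOT00000039096 (2678 bases) had one of the lowest values of L among members with at least 5 CPM in vehicle liver. It measured 4.24, 5.66, 4.78, 4.90, and 5.55 CPM in the 8 h vehicle livers and 0.756, 0.765, 1.11, 0.816, and 0.467 CPM in the high-dose livers. Thus the groups were well apart, with 15.6% of the vehicle mean left. The high-dose values of this member rest on 12 to 28 estimated counts per library, with a median of 19. ENSRNOT00000013753 (2582 bases) measured 12.6, 21.1, 19.1, 21.9, and 16 CPM after vehicle and 6.05, 4.76, 3.63, 6.25, and 5.44 CPM after the high dose. Its groups did not overlap either, and 28.8% of the vehicle mean was left.

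Some members were barely detected after the high dose. Of the 23, 8 had a median estimated count under 20 in the 8 h high-dose libraries, so that their level there rests on few reads. The 2012-base member was listed at 0 in all 5 high-dose libraries, against 0.749 to 3.00 CPM after vehicle. The 1315-base member had 0.178 CPM in library MS-27 and less than 1 count in the other 4, against 0.815 to 1.84 CPM after vehicle. The 684-base member owes its place to a single vehicle library, MS-29, with 6.37 CPM. It had less than 1 count in the other 4 vehicle libraries and in all 5 high-dose libraries at 8 h.

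Whether the members were back at 24 h depends on the scale. On plain CPM, all 23 had a mean above vehicle at 24 h after either dose. The log2 ratio before the median was taken off ranged from 0.18 to 1.04 after the high dose, with a median of 0.44. However, the median over the transcripts used for centering was 0.68, a 1.601-fold higher level for the typical transcript. Relative to it, L of the members ranged from -0.50 to 0.36, and had a median of -0.24, and 17 of the 23 were below 0. For ENSRNOT00000039096, the 24 h vehicle livers measured 4.64, 6.52, 5.83, and 5.59 CPM and the high-dose livers 6.50, 8.30, 8.75, 7.14, and 11.2 CPM. The lowest high-dose library was thus just under the highest vehicle library, and L was -0.18. In 5 members every 24 h high-dose library was above every vehicle library, against 55% of the 16792 transcripts. The rule had limited L at 24 h to between -0.5 and 0.5, so this difference is not independent of the choice of members.

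**Figure D2:**
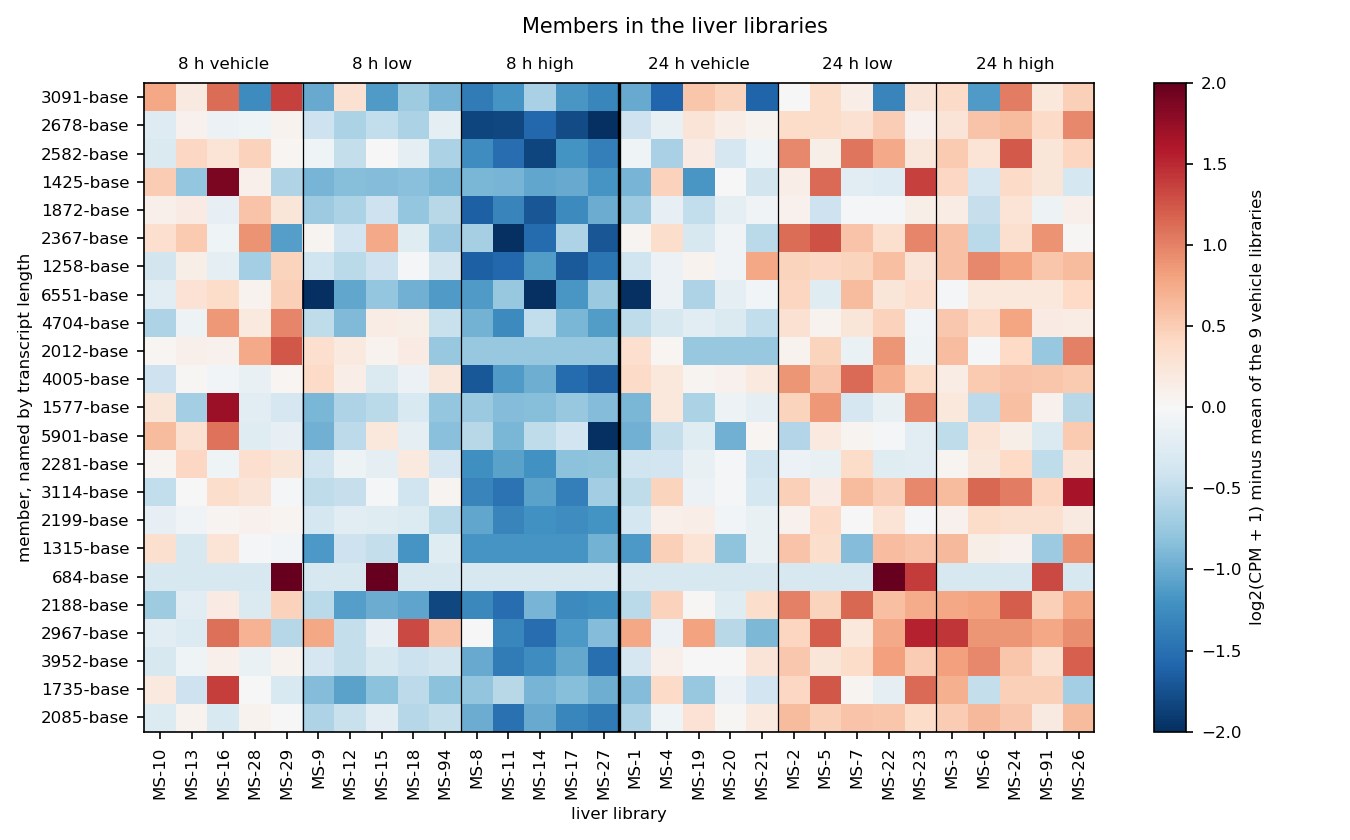
log2(CPM + 1) of the 23 members (rows, lowest L at 8 h on top) in the 30 liver libraries (columns), minus the mean of the 9 vehicle libraries other than MS-1. Blue is below and red above that mean, with the scale ending at 2 units either way. The 8 h high-dose columns are mostly blue and the 24 h columns of both doses mostly pale red.

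The low-dose livers were not used in the choice of members, but the vehicle livers beside them were, so their ratio to vehicle is given as a description, with no test. At 8 h, the mean CPM of 21 of the 23 was below vehicle, and the median member was at 64.2% of the vehicle mean (range 11.3% to 119%). Without MS-9 these values were again 21 of the 23 and a median of 68.4% (range 11.7% to 114%). Means were ordered vehicle, low dose, high dose in 20 of the 23, and in 21 without MS-9. The rule had already set vehicle above high dose in all of them. On plain CPM, the 2967- and 4005-base members had low-dose means above vehicle (48.3 ± 23.9 against 40.5 ± 21.4 CPM and 25.7 ± 4.91 against 22.4 ± 2.82 CPM; SD, n = 5). However, the typical transcript was itself 1.186-fold above vehicle in this comparison. On the TMM scale of edgeR, the log2 ratios of these members were -0.07 and -0.13, respectively. Relative to the typical transcript, 22 of the 23 members were below 0. In the 6551-base member, the low-dose mean of 1.44 ± 0.850 CPM (SD, n = 5) was under the high-dose mean of 1.504 ± 0.929 CPM, whereas without MS-9 it was 1.80 ± 0.309 CPM (SD, n = 4). In 6 members, and in 7 without MS-9, all low-dose libraries were below all vehicle libraries. This was so for 4.15% of the 16792 transcripts, but the rule had chosen the members for high vehicle values. The 1872-base member measured 11.5, 12, 9.34, 16.2, and 12.8 CPM after vehicle and 6.02, 6.52, 7.74, 5.79, and 6.93 CPM after the low dose at 8 h, with no overlap. At 24 h the low-dose means were above vehicle on plain CPM, as given above, whereas on the TMM scale of edgeR the log2 ratios of 22 members ranged from -0.39 to 2.13 and 9 were under 0.

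The comparison of 8 h with 24 h within the low dose shares no sample with the rule. It was made with the quasi-likelihood test of edgeR, and a transcript was called at a Benjamini-Hochberg adjusted p of at most 0.01 with a change of at least 0.866 on the log2 scale. Of 22 members tested, 3 were lower at 8 h than at 24 h, whereas 1.92% of 16792 transcripts were called lower. None was higher (2.22% of transcripts were). Of the 3, ENSRNOT00000089026 (1425 bases) and ENSRNOT00000087948 (1735 bases) moved together within groups (Spearman correlation 0.94), and whether they share reads was not tested. Only 1 call was left among the 15 members with at least 5 CPM in vehicle liver, while DESeq2 called 6 of the 22 and limma 8. The adjusted p alone was met by 7 members, all lower, against 5% of transcripts. The fitted change was negative in 21 of 22 members and in 47% of transcripts, and its median was -0.77 over the members and 0.03 over all transcripts (log2). An unadjusted p under 0.05 was found for 15 members and for 39.7% of transcripts. The untested member was the 684-base transcript, which failed the filter on low counts. Without MS-9, 21 of the 22 changes were negative with a median of -0.79, 15 had an unadjusted p under 0.05, 6 met the adjusted p alone, and 3 were called, 2 of them also called with it. The call of the 1735-base member was lost and the 6551-base member was called, with a log2 change of -1.55 (edgeR adjusted p = 0.00275). Without MS-5 (24 h) or MS-94 (8 h) there were 5 calls.

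The 2188-base member changed with the smallest error of the 3 called. It measured 12.8, 8.35, 9.08, 8.59, and 4.67 CPM at 8 h after the low dose and 39, 26.2, 43.2, 29.3, and 32.4 CPM at 24 h. The groups did not overlap, and the log2 change was -1.79 (SE 0.226, edgeR adjusted p = 0.000708). ENSRNOT00000089026 (1425 bases) measured 0.238, 0.303, 0.294, 0.318, and 0.259 CPM at 8 h and 1.58, 4.19, 1.02, 0.971, and 5.08 CPM at 24 h. Its 8 h values rest on only 4 to 9 estimated counts per library. All 24 h libraries were above all 8 h libraries, and the log2 change was -2.96 (SE 0.528, edgeR adjusted p = 0.00306). ENSRNOT00000087948 (1735 bases) measured 0.416, 0.236, 0.47, 0.794, and 0.466 CPM at 8 h and 2.45, 5.16, 1.69, 1.30, and 4.67 CPM at 24 h. Its 8 h values rest on 7 to 20 estimated counts per library. In all, 7 members had a median estimated count under 20 in the 8 h low-dose livers. Again the groups were apart, with a log2 change of -2.47 (SE 0.463, edgeR adjusted p = 0.00386). Its call was lost without MS-9, when the change was -2.47, and without MS-15, when it was -2.46.

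Some members had large changes with larger errors and were not called in the fit that includes MS-9. The log2 change was -2.44 (SE 0.691, edgeR adjusted p = 0.0241) for the 1577-base member. It was -1.85 (SE 0.854, edgeR adjusted p = 0.132) for the 1315-base member and -1.80 (SE 0.557, edgeR adjusted p = 0.0344) for the 6551-base member. Others had smaller changes with little spread between libraries. The 2085-base member measured 12.9, 14.6, 17.3, 13.4, and 14.4 CPM at 8 h and 32, 28.8, 30.8, 30.2, and 26.4 CPM at 24 h after the low dose. These groups were wide apart on CPM, and with a log2 change of -0.85 on the TMM scale (SE 0.0885, edgeR adjusted p = 0.000375) it fell just short of the limit on size. The 3952-base member (log2 change -0.79), ENSRNOT00000039096 (-0.77), and the 1258-base member (-0.69) also met the adjusted p alone. ENSRNOT00000013753 had a log2 change of -0.81 (SE 0.208, edgeR adjusted p = 0.0154) and met neither limit. The only positive value was 0.09 (SE 0.158) for the 2281-base member, with edgeR adjusted p = 0.729. In 11 members every 8 h low-dose library was below every 24 h low-dose library on CPM (18.3% of the 16792 transcripts; 12 members without MS-9), and none showed the reverse (4%). In the vehicle livers, which the rule used, the members went the other way. Their median log2 value for 24 h against 8 h was -0.41, against -0.01 over all transcripts. The rule favored a high 8 h mean in these livers, so this direction is not independent of the choice of members.

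**Figure D3:**
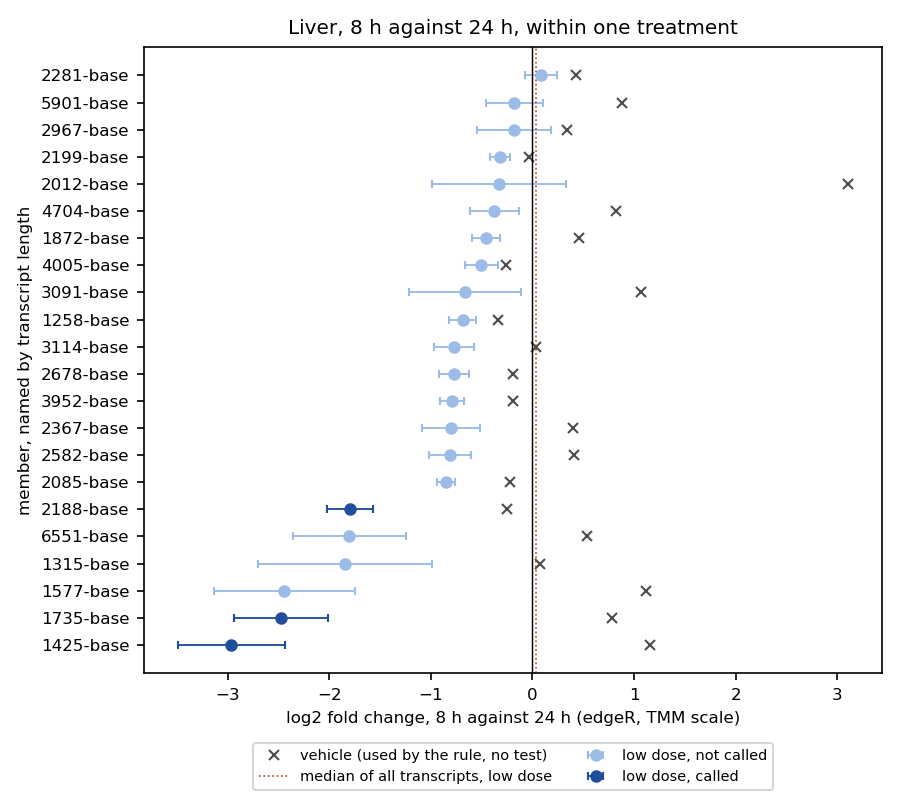
log2 fold change of 22 members in low-dose liver, 8 h against 24 h, with bars of 1 SE from edgeR (5 libraries each). Dark points passed both limits, crosses give the vehicle livers for the same contrast, and the dotted line is the median of all transcripts after the low dose. All but the 2281-base member lie left of 0 after the low dose.

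**Figure D4:**
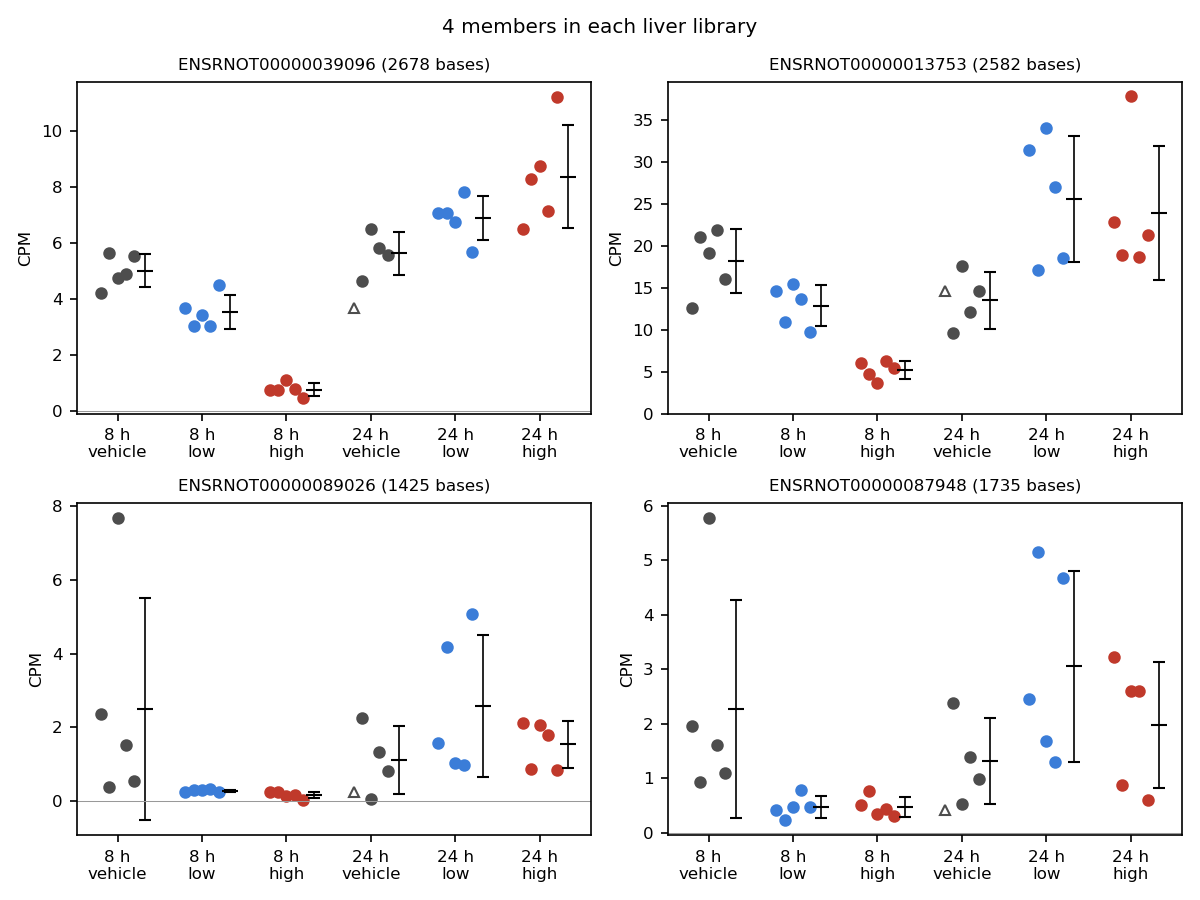
CPM of 4 members in each of the 30 liver libraries (points), with the mean and SD of each group beside them. Open triangles mark MS-1, which is left out of the mean. In the upper panels the 8 h high-dose libraries lie below all others, and in the lower panels the 8 h libraries of both doses lie under 1 CPM while a single vehicle library (MS-16) lies high.

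The 1425-, 1577-, and 1735-base members moved together. Over 29 liver libraries, the Spearman correlations among them were 0.92 to 0.94, against a median of 0.56 over all 253 pairs of members. With the group means taken off they were 0.90 to 0.94, whereas the median pair had 0.03 and the highest of the other 250 pairs 0.50. All libraries were made and scaled alike, and all 3 are low transcripts at 1.04 to 1.91 TPM (the deposited abundance per length) after vehicle at 8 h. The correlations among them were 0.45 to 0.71 over 30 kidney libraries and -0.06 to 0.33 over 30 heart libraries. Kallisto divides reads among transcripts that share sequence, and whether these 3 share reads was not tested. Library MS-16, with 23.6% of its counts on intervals, set their 8 h vehicle level, since their CPM summed to 18.7 in it and to between 1.497 and 5.56 in the other 4. Without MS-16, the high-dose mean was 14.3%, 11.8%, and 33.9% of vehicle for the 1425-, 1577-, and 1735-base members, respectively, in place of 6.88%, 4.83%, and 20.8%, and none of the 3 met the rule.

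The members were not a liver-specific set. Mean vehicle CPM was highest in kidney for 10 members, in liver for 7, and in heart for 6, which is 43.5%, 30.4%, and 26.1%, against 55.6%, 14.7%, and 29.7% of the 16792 transcripts. The rule limited how far liver could exceed the others, and the highest ratio was 7.41, in the 2367-base member. In 5 members the vehicle level in kidney or heart was over 5 times that in liver. The 2188-base member, for example, had 19.6 CPM in liver, 160 CPM in kidney, and 234 CPM in heart. In contrast, 6 members were under 0.5 CPM in heart. In vehicle liver, the members ranged from 0.708 to 36.7 CPM with a median of 6.79, close to the 6.72 of all transcripts tested. Their median length was 2281 bases, against 2148.5 bases. They varied more among the 8 h vehicle livers, with a median CV of 32.8%, against 22.8%. The rule favored a high mean in these same livers, which a single high library can give. This difference is therefore not independent of the choice of members.

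**Figure D5:**
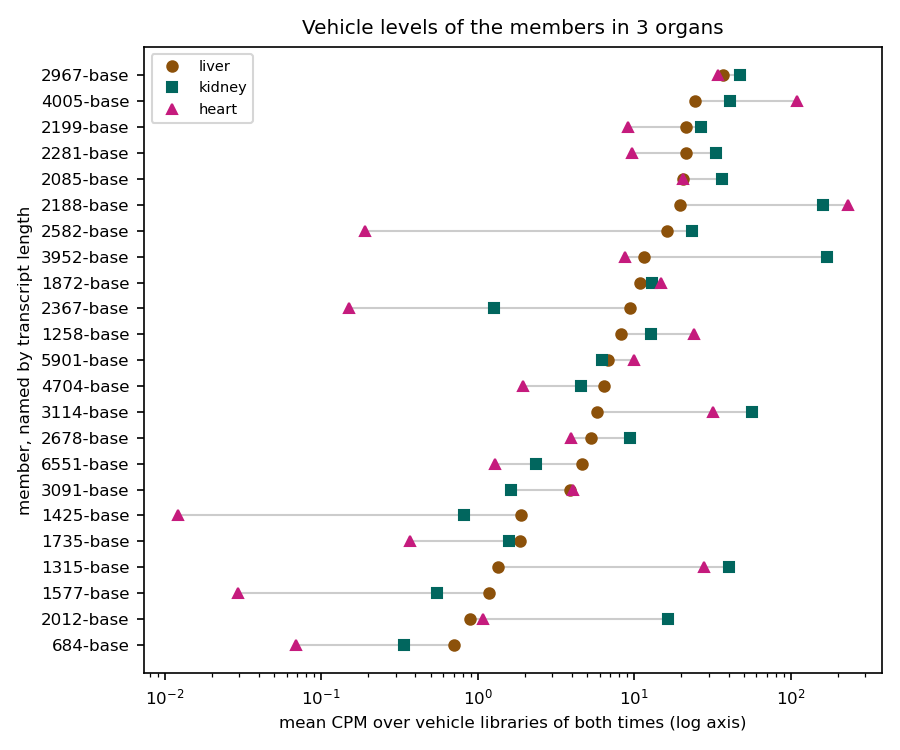
Mean CPM of each member over the vehicle libraries of both times in liver, kidney, and heart (log axis), ordered by the level in liver. Gray lines join the lowest and highest organ. Liver is the highest organ for 7 of the 23 members.

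The treated kidneys and hearts were not used by the rule. Per the methods of the study, however, they came from the same rats as the livers. The vehicle kidneys and hearts also entered the 20-fold bound. At 24 h after the high dose, 1 of 21 members tested in kidney was lower than vehicle, against 2.04% of 18967 transcripts, and none was higher (2.15%). This was ENSRNOT00000087948, which measured 2.52, 1.63, 1.08, 2.13, and 1.36 CPM after vehicle and 0.671, 0.518, 0.712, 0.725, and 0.417 CPM after the high dose. The groups did not overlap, and the log2 change was -1.63 (SE 0.324, edgeR adjusted p = 0.00679). The call was lost, leaving 0, without any of vehicle libraries MS-31, MS-34, and MS-50 or high-dose libraries MS-33, MS-36, MS-54, and MS-56. ENSRNOT00000089026 had a log2 change of -2.76 (SE 0.755) and missed the threshold with an edgeR adjusted p of 0.0317. In all, 19 of the 21 fitted changes were negative, against 47.7% of transcripts, with a median of -0.39 on the log2 scale, and 9 had an unadjusted p under 0.05 (28.2% of transcripts). ENSRNOT00000013753 was among the other 2 and its groups did not overlap. It measured 17.5, 26, 30.6, 18.2, and 26.6 CPM in vehicle kidneys and 37.4, 40.4, 31.7, 33.8, and 45.8 CPM in high-dose kidneys at 24 h (log2 change 0.56, SE 0.167, edgeR adjusted p = 0.0469). At 8 h after the high dose, 13 of 21 fitted changes in kidney were negative. After the low dose, 16 of 21 were negative at 8 h and 13 of 21 at 24 h. In each heart comparison, 10 or 11 of the 17 or 18 were negative. The median change over all transcripts was between -0.03 and 0.02 in each of these comparisons.

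At 8 h after the high dose, none of 21 members in kidney was called by edgeR (0.409% of 18597 transcripts were lower and 1.09% higher), while DESeq2 called 1, edgeR called 1 without MS-100 (vehicle), and 8 had an unadjusted p under 0.05 (23.8% of transcripts). ENSRNOT00000039096 came closest. It measured 10.3, 7.35, 8.94, 11.6, and 8.98 CPM in vehicle kidneys and 5.4, 5.5, 4.54, 4.63, and 2.74 CPM in high-dose kidneys at 8 h. The groups were apart, and the log2 change was -1.04 (SE 0.207, edgeR adjusted p = 0.0146). By 24 h its vehicle mean was 9.46 ± 2.22 CPM and its high-dose mean 9.14 ± 1.52 CPM (SD, n = 5). After the low dose, no member in kidney was called by edgeR or DESeq2 at 8 h (0.0425% of transcripts lower, 0.175% higher) or at 24 h (0.0216% lower, 0.0377% higher), and 5 and 3 members had an unadjusted p under 0.05 (11.9% and 11.5% of transcripts).

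In heart, no member was called by edgeR or DESeq2 in any of the 4 comparisons, in which 17 or 18 members were tested. Unadjusted p-values under 0.05 were found for 2 members after the high dose (9.69% of transcripts) and 0 after the low dose (3.93%) at 8 h, and for 6 (20.9%) and 2 (9.17%) at 24 h. Few transcripts of any kind were called in heart. At 24 h after the high dose, 0.245% were lower and 0.677% higher, at 8 h after it 0% were lower and 0.0171% higher, and after the low dose 0% were called at either time. The clearest member was the 4005-base transcript at 24 h after the high dose, with a log2 change of -0.57 (SE 0.0719, edgeR adjusted p = 0.00138), which is under the limit on size. Whether the changes differed between liver and the other organs was not tested.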

How the data were processed

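The authors pseudo-aligned 75-base read pairs from poly-A-enriched, stranded libraries with Kallisto (0.42.2 in the submitters' processing notes) to the Ensembl rat transcriptome (Rnor_6.0) and deposited, for each target, an estimated count, not normalized, and its TPM. Of 65166 targets, the 40071 transcripts were used. The 25095 genomic intervals were left out of CPM, fits, and scaling. The members and all lists were chosen with earlier results of these data known. Estimated counts were rounded and fitted, 5 libraries against 5 (4 where MS-1 is left out), in edgeR 4.0.16 (R 4.3.3) with its default filter, TMM scaling, and quasi-likelihood test, with Benjamini-Hochberg adjustment over all transcripts tested. The code was tested on simulated data. Calls needed an adjusted p of at most 0.01 and an absolute natural-log change of at least 0.60 (0.866 on log2). Per the methods of the study, 30 rats, 5 per time and dose, each gave liver, kidney, and heart, so that libraries within an organ came from separate rats. Tests of the low dose against vehicle in liver were run but are not reported, since the rule used those vehicle livers. The rule for named transcripts took those with the lowest L at 8 h and at least 5 CPM in vehicle liver, the highest vehicle TPM, and the largest changes among calls. With no gene symbols, it allowed at most 4 identifiers, and narrowing it to the 4 printed was done after values were seen, as was the choice of members described by length. Alternatives were DESeq2 1.42.0, limma 3.58.1 on the deposited TPM as log2(TPM + 1), other filters and pseudocounts, and leaving out each library. Gene lists, markers, and promoters need gene names and were not used here. Counting error was not separated from the spread between libraries.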

Additional observations from a re-analysis of the deposited data

Results flagged for a closer look

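In each liver group of 4 or 5 libraries, a member's highest or lowest library was compared with the rest by Dixon's ratio of the gap to the range. Of 138 combinations of member and group, 16 had a library apart. The nominal rate by chance, about 1 in 20, is not a fair baseline for this count. Some members moved together or were barely detected, so the combinations are not independent and values can be skewed. The rule also favored a high mean in the 8 h vehicle livers, which a single high library can give. Whether 16 is more than among all transcripts was not tested. All values are CPM.

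Library MS-16 stood above the other 8 h vehicle livers for the 1425-base member (7.68, others at most 2.36), the 1577-base member (5.21, others at most 1.24), and the 1735-base member (5.78, others at most 1.96). For the 684-base member, which had less than 1 count in the other libraries of each group, the libraries apart were MS-29 after vehicle at 8 h (6.37), MS-15 after the low dose at 8 h (4.09), and MS-91 after the high dose at 24 h (2.12). The 3091-base member was high in MS-12 after the low dose (3.67, others at most 1.31) and in MS-14 after the high dose (1.41, others at most 0.700), both at 8 h. The 1315-base member had 0.178 in MS-27 at 8 h after the high dose, and 0.248 in MS-7 at 24 h after the low dose, where the others had at least 1.90. MS-7 was also apart for the 2281-base member (27.5, others at most 19.3).

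At 24 h after the high dose, MS-3 was high for the 2967-base member (90.3, others at most 63.4) and low for the 4005-base member (26.7, others at least 35), and MS-24 was high for ENSRNOT00000013753 (37.9, others at most 22.9). In the 24 h vehicle livers, MS-21 was high for the 1258-base member (14, others at most 8.23), and MS-4 was the only library with a count for the 2012-base member (0.745).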

How the results depend on the processing

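Membership depends on scale. With a pseudocount of 0.1, 148 transcripts met the rule (19 of the 23 among them), with no median taken off 74 (9), and with MS-1 kept 36 (23). Median in place of mean CPM gave 32 (13), TMM scaling 27 (22), and leaving out each library 19 to 31, with 7 members kept in all 19 repeats. Alternatives chosen after seeing the data gave 54 (21) for TMM scaling with no median taken off, 29 (14) without the 5 libraries over 20% on intervals, and 23 (23) with the bound on 8 h vehicle levels alone.

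Members called after the low dose, 8 h against 24 h, numbered 7 with no limit on the fold change, 6 by DESeq2, 8 by limma, 1 among the 15 members with at least 5 CPM in vehicle liver, and 3 to 5 (5 without MS-5 or MS-94) with each library left out. Calls of the low dose against vehicle in liver are not reported, since the rule used those vehicle livers. In kidney after the high dose, DESeq2 called 1 at 8 h and 3 at 24 h, leaving out libraries gave 0 to 1 at each time, and no filter on low counts gave 0 at 24 h. In heart at 24 h after the high dose, 1 was called with no limit. No count of members called and no log2 change of a named transcript reversed direction under the alternatives run. The order of the low- and high-dose means of the 6551-base member at 8 h did reverse without MS-9. The direction at 24 h against vehicle depended on the scale, as given above. Of the counts of members called under an alternative, 111 stayed within 1.5 times the value reported, 95 of them 0 against 0, and 18 did not. With each library left out, the log2 change was -0.90 to -0.72 for ENSRNOT00000039096, -0.93 to -0.69 for ENSRNOT00000013753, -3.17 to -2.54 for ENSRNOT00000089026, and -2.79 to -2.22 for ENSRNOT00000087948. The causes were not tested. The groups compared within an organ came from separate rats, so no pairing applied to them. The labels do not say which liver, kidney, and heart libraries came from the same rat. With 8 members under 20 counts at 8 h after the high dose, depth limits their values there.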
